A study of Mus musculus with 6 samples.

Results

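The clustered protocadherins are cell-adhesion genes that stand side by side in 3 clusters, alpha, beta and gamma, on mouse chromosome 18. They were taken by symbol from the deposited transcript table, which gave 59 of its 47729 gene IDs, each counted as a gene here. Of these, 14 belonged to the alpha cluster, 22 to beta and 23 to gamma. By type they were 12 alternate alpha genes, 22 beta genes, 12 gamma A and 8 gamma B genes, and 5 C-type genes (Pcdhac1, Pcdhac2, Pcdhgc3, Pcdhgc4 and Pcdhgc5), which close the alpha and gamma clusters. The array runs from base 36930184 to base 37841873 of chromosome 18 (build GRCm38), with every placed gene on the plus strand.

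The study asked how loss of GSK3β alters the RNA bound to ribosomes in D2 dopamine receptor neurons of the medial prefrontal cortex (mPFC). All animals were adult male D2Cre/LSL-Flag-Cas9/RiboTag mice of the C57BL/6 strain, 2.5 to 3 months old, so both groups carried the Cre driver, the Cre-dependent Cas9 and the tagged ribosomal protein Rpl22. Ctrl mice received AAV GFP in the mPFC, and Gsk3sKO in mPFC D2 mice (Gsk3sKO below) received AAV Gsk3 sgRNA/GFP, whose guide cuts exon 3 of Gsk3b. RNA was taken 3 weeks later by RiboTag immunoprecipitation and sequenced as 3 libraries a group. The Cre is a transgene that follows Drd2 expression, and Cas9 cuts only in cells that also took up the virus, whereas the ribosome tag needs Cre alone. Neither the labels nor the study's methods say whether a library is 1 mouse or a pool, so the p-values reflect only how far these libraries spread, and that spread may be technical.

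In the alpha and gamma clusters, each isoform begins with its own promoter and large variable exon, which is spliced to short constant exons shared by the whole cluster. Beta genes have no shared constant exons. Neurons choose alternate isoforms by promoter, with the help of the looping factor CTCF, cohesin and DNA methylation, and the proteins bind their own kind on facing membranes, a recognition system known for dendrite self-avoidance and for shaping cortical axons and synapses. C-type isoforms are regulated apart from the alternate ones.

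Expression is given as FPKM, fragments per kilobase of transcript and per M mapped fragments (M, 10 to the power of 6), summed over the transcripts of a gene, so levels of different genes can be compared per length. Differences are log2 fold changes of Gsk3sKO against Ctrl on the log2(FPKM + 1) scale from limma, which understates the change of genes with low values. A gene total was tested where its mean over the 6 libraries was at least 1 FPKM, and was called at an unadjusted p under 0.05.

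Before the members, the target and the tissue were checked. Gsk3b was at 35.6, 53.8 and 56.5 FPKM in Ctrl libraries and at 36.9, 37.0 and 33.6 FPKM in Gsk3sKO libraries. Ctrl replicate 1 lay among the Gsk3sKO libraries, and the log2 fold change was -0.40 (SE 0.19, unadjusted limma p of 0.0648, adjusted p = 0.773). Without Ctrl replicate 1 it was -0.61 (unadjusted limma p of 0.00265). Over all single libraries left out it ranged from -0.61 to -0.28 (unadjusted limma p from 0.00265 to 0.206). An edited gene can still be transcribed, so this level is not a reading of the protein. By staining in D2Cre/LSL-Flag-Cas9 mice, the study found GSK3β missing from most mPFC neurons that held both Cas9 and the guide. Drd2, the D2 receptor itself, was at 1.58, 6.02 and 14.1 FPKM in Ctrl libraries and at 8.32, 5.96 and 7.28 FPKM in Gsk3sKO libraries. The summed level of the 5 D2 and dopaminoceptive markers found (of 6) ranged from 124 to 366 FPKM in Ctrl libraries and from 178 to 339 FPKM in Gsk3sKO libraries, with Penk (encoding enkephalin) the highest and Adora2a listed at 0 in Ctrl replicate 1. Genes of excitatory and inhibitory neurons were abundant in both groups. The excitatory kinase gene Camk2a was at 542 ± 44.8 and 592 ± 95.8 FPKM (Ctrl and Gsk3sKO, SD, n = 3). The interneuron peptide gene Sst was at 822 ± 116 and 694 ± 36.3 FPKM. Whether these RNAs came from the tagged D2 cells or from other cells was not tested. In material of this kind, fewer tagged cells and less RNA per cell cannot be told apart.

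None of the 59 clustered protocadherins differed between Ctrl and Gsk3sKO by the threshold used. The summed FPKM of each cluster was nearly the same in both groups, while single genes, above all those of the gamma cluster, scattered widely between libraries of the same group. Of the 59 members, 44 reached the mean of 1 FPKM (8 alpha, 15 beta and 21 gamma), and 0 of these 44 were called, against 6.56% of the 12874 gene totals tested (5.2% lower and 1.36% higher in Gsk3sKO). Without the filter, 0 of 59 were called against 4.2% of 26696 gene totals. At the adjusted threshold 6 gene totals of the whole table (0.0466%) were called, and the adjusted p of the members lay between 0.792 and 1.0.

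The alpha total was 30.6, 32.4 and 29.7 FPKM in Ctrl libraries and 31.8, 31.5 and 30.7 FPKM in Gsk3sKO libraries. The beta total was 36.0, 38.9 and 39.3 FPKM in Ctrl libraries and 42.0, 35.8 and 37.5 FPKM in Gsk3sKO libraries. The gamma total was 105.6, 119.8 and 129.9 FPKM in Ctrl libraries and 129.3, 114.5 and 97.6 FPKM in Gsk3sKO libraries. In each cluster the groups overlapped. As means, alpha was at 30.9 ± 1.37 and 31.4 ± 0.599 FPKM, beta at 38.1 ± 1.82 and 38.4 ± 3.17 FPKM, and gamma at 118 ± 12.2 and 114 ± 15.9 FPKM (Ctrl and Gsk3sKO, SD, n = 3). The log2 differences of these totals were 0.02, 0.01 and -0.06, each smaller than the within-group SD of the total. These sums over members carry no test.

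**Figure D1:**
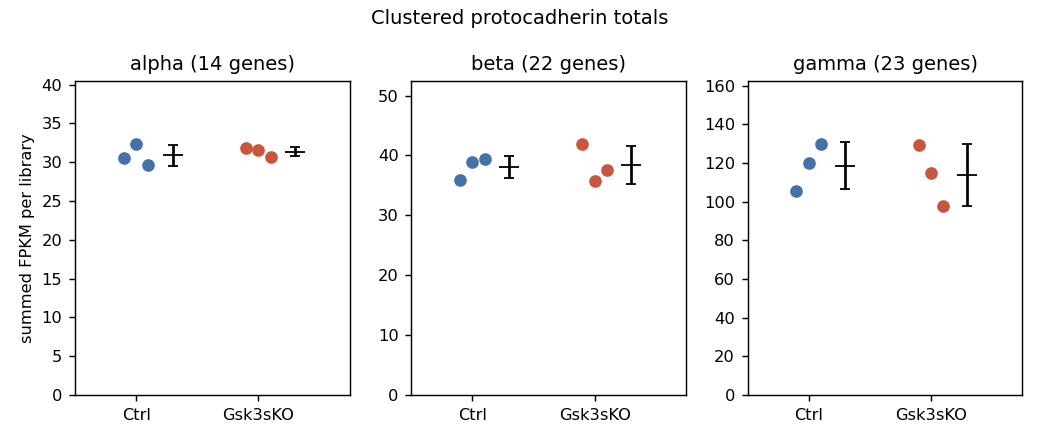
Summed FPKM of the alpha, beta and gamma clusters in each library (points; vertical axis from 0), with group mean and SD (n = 3) beside them. Ctrl and Gsk3sKO overlap in each panel, and alpha spans only 29.7 to 32.4 FPKM while gamma spans 97.6 to 129.9 FPKM.

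The subtypes gave the same picture with different spread. Gamma A genes summed to 57.3 ± 7.85 FPKM in Ctrl libraries and 55.6 ± 7.67 FPKM in Gsk3sKO libraries, and alternate alpha genes to 17.1 ± 0.958 and 18.0 ± 1.37 FPKM. Gamma B genes had the largest difference of the subtypes, from 20.0, 26.7 and 23.0 FPKM in Ctrl libraries to 26.2, 19.9 and 15.0 FPKM in Gsk3sKO libraries, a log2 difference of -0.21 with overlapping groups and a within-group SD of 0.31. The 5 C-type genes together held 27.6% ± 0.495 of the FPKM of all members in Ctrl and 28.0% ± 2.11 in Gsk3sKO (SD, n = 3). The division among the clusters was also alike, with gamma at 63.1% ± 2.01 and 61.8% ± 2.60, beta at 20.3% ± 0.564 and 21.0% ± 1.51, and alpha at 16.5% ± 1.45 and 17.2% ± 1.42 of all members.

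The highest levels belonged to a pair of C-type genes. Pcdhgc5, the last gene of the array, was at 23.0, 26.6 and 29.8 FPKM in Ctrl libraries and at 35.2, 22.2 and 25.8 FPKM in Gsk3sKO libraries. It was the highest member in every library, with overlapping groups and a log2 fold change of 0.05 (SE 0.20, adjusted p = 0.973). Pcdhac2, the C-type gene that closes the alpha cluster, was at 12.4, 13.3 and 13.0 FPKM in Ctrl libraries and at 12.5, 11.5 and 13.1 FPKM in Gsk3sKO libraries. It was second in every library and varied least of all tested members (within-group CV 5.18%), and its log2 fold change was -0.06 (SE 0.16, adjusted p = 0.955). Alone it made up 41.9% ± 1.79 of the alpha total in Ctrl and 39.4% ± 3.12 in Gsk3sKO, and Pcdhgc5 made up 22.3% ± 0.585 and 24.3% ± 4.32 of the gamma total (SD, n = 3).

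The other C-type genes were lower. Pcdhgc3, whose product is known to bind the Wnt pathway scaffold Axin1, was at 4.25, 6.33 and 5.73 FPKM in Ctrl libraries and at 5.11, 4.30 and 5.75 FPKM in Gsk3sKO libraries (log2 fold change -0.08, SE 0.23, adjusted p = 0.956). Pcdhgc4, an isoform known to be needed for the survival of cortical interneurons, was at 6.62, 6.33 and 5.02 FPKM in Ctrl libraries and at 2.57, 8.34 and 4.35 FPKM in Gsk3sKO libraries (log2 fold change -0.30, SE 0.35, adjusted p = 0.903). Both the lowest and the highest library of Pcdhgc4 were Gsk3sKO libraries. Pcdhac1, which precedes Pcdhac2, stood just below the filter with a mean of 0.977 FPKM, with 0.766, 1.26 and 0.653 FPKM in Ctrl libraries and 0.805, 1.15 and 1.23 FPKM in Gsk3sKO libraries.

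**Figure D2:**
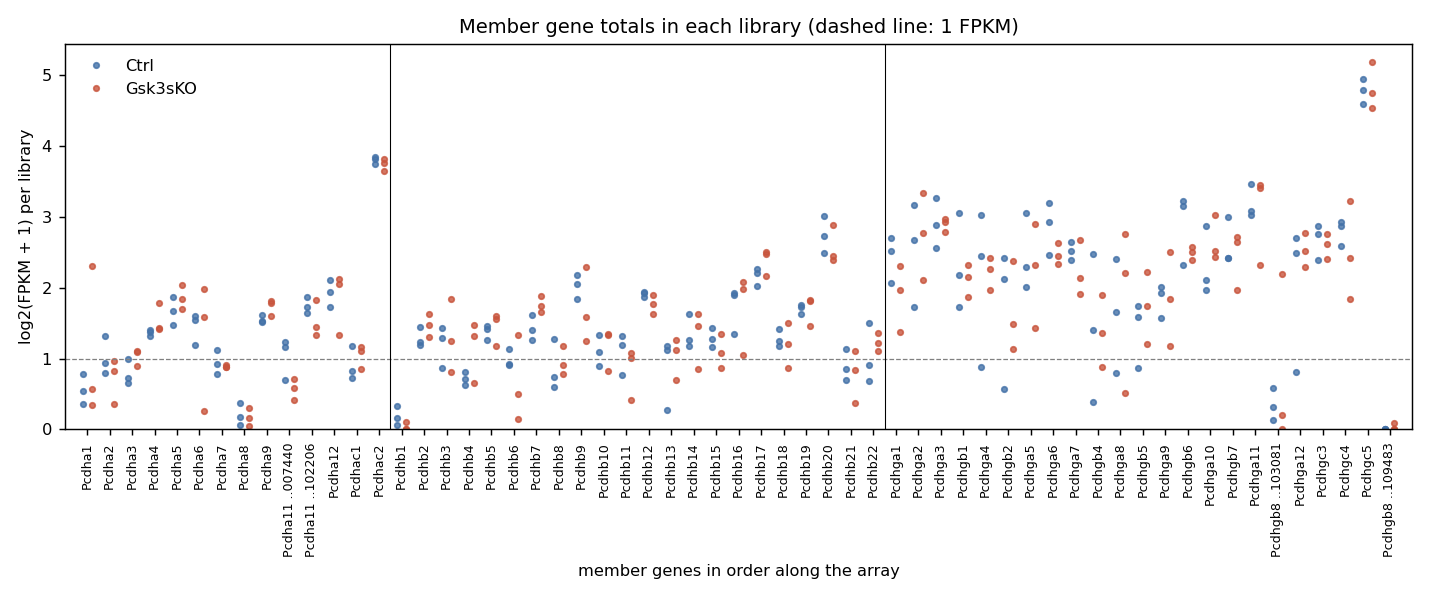
Gene totals of all 59 members in each library, as log2(FPKM + 1), in order along the array; vertical lines divide alpha, beta and gamma, blue points are Ctrl and red points Gsk3sKO, and 2 gene IDs with the same symbol carry the last digits of the ID. Pcdhac2 and Pcdhgc5 stand above the rest, and the points of gamma A and B genes are the most spread.

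Among the alternate alpha isoforms, levels were low, from 0.142 FPKM (Pcdha8) to 2.75 FPKM (Pcdha12) as the mean over the 6 libraries. Pcdha12 was at 3.30, 2.85 and 2.32 FPKM in Ctrl libraries and at 3.35, 3.15 and 1.52 FPKM in Gsk3sKO libraries, and the lowest value belonged to Gsk3sKO replicate 3 (log2 fold change -0.09, SE 0.30, adjusted p = 0.964). Pcdha5 was at 2.18, 2.65 and 1.78 FPKM in Ctrl libraries and at 2.57, 3.08 and 2.23 FPKM in Gsk3sKO libraries (log2 fold change 0.18, SE 0.26, adjusted p = 0.923). Pcdha4 was at 1.49, 1.58 and 1.65 FPKM in Ctrl libraries and at 2.43, 1.67 and 1.70 FPKM in Gsk3sKO libraries, so all Gsk3sKO libraries were above all Ctrl libraries, with a log2 fold change of 0.18 (SE 0.27, adjusted p = 0.930). Of the Gsk3sKO libraries, 2 exceeded the highest Ctrl library by very little.

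The largest positive difference among the tested alpha members came from 1 library. Pcdha1, the first gene of the array, was at 0.286, 0.721 and 0.461 FPKM in Ctrl libraries and at 0.265, 3.95 and 0.490 FPKM in Gsk3sKO libraries. Its log2 fold change of 0.51 (SE 0.53, unadjusted limma p of 0.366) became -0.11 without Gsk3sKO replicate 2. With a mean of 1.03 FPKM it was also the lowest member inside the filter, next to Pcdhb11 at 0.993 FPKM outside it. In that same library Pcdha6 was at 0.197 FPKM, against 1.29 to 2.94 FPKM in the other libraries. The largest negative difference among them was that of Pcdha11 (ENSMUSG00000102206), at 2.65, 2.13 and 2.32 FPKM in Ctrl libraries and at 2.54, 1.72 and 1.52 FPKM in Gsk3sKO libraries (log2 fold change -0.21, SE 0.27, unadjusted limma p of 0.453).

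A further gene ID carries the symbol Pcdha11 in the table. ENSMUSG00000007440, which lies where the RefSeq annotation of GRCm38 places Pcdha10, was below the filter at 1.24, 0.620 and 1.36 FPKM in Ctrl libraries and at 0.635, 0.338 and 0.496 FPKM in Gsk3sKO libraries. Its Gsk3sKO replicate 1 lay just above Ctrl replicate 2, and the limma fit without a filter gave an unadjusted p of 0.0952, the lowest among the 15 members below the filter. Pcdhga8 and Pcdhgb8 also hold 2 gene IDs each in the table. The ID ENSMUSG00000023036, named Pcdhga8 there, is Pcdhgc4 in the GENCODE annotation and is called so here. Of the Pcdhgb8 IDs, ENSMUSG00000103081 is a polymorphic pseudogene in that annotation. ENSMUSG00000109483 is not a gene of it and shares 100% of its bases with other members. Both count among the 59 members and lie below the filter.

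No beta gene stood far above the rest of its cluster. Their means ran from 0.0829 FPKM (Pcdhb1) to 5.40 FPKM (Pcdhb20), and no tested beta member had a highest library 5 times its lowest. Pcdhb20 was at 7.07, 5.64 and 4.63 FPKM in Ctrl libraries and at 4.25, 6.34 and 4.43 FPKM in Gsk3sKO libraries (log2 fold change -0.18, SE 0.24, adjusted p = 0.920). Pcdhb17 was at 3.81, 3.61 and 3.05 FPKM in Ctrl libraries and at 3.48, 4.58 and 4.65 FPKM in Gsk3sKO libraries (log2 fold change 0.22, SE 0.23, adjusted p = 0.896). In both the groups overlapped. The first 11 genes along the cluster ranged from 0.0829 to 2.75 FPKM (median 1.22) and the last 11 from 0.810 to 5.40 FPKM (median 1.56), and these ranges overlapped, as did those of the first 6 (0.860 to 2.42 FPKM, median 1.38) and last 6 (0.142 to 2.75 FPKM, median 1.51) alternate alpha genes.

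Pcdhb7 had the largest positive difference of the tested beta members. It was at 2.06, 1.65 and 1.40 FPKM in Ctrl libraries and at 2.15, 2.34 and 2.67 FPKM in Gsk3sKO libraries, every Gsk3sKO library above every Ctrl library, and its log2 fold change was 0.33 (SE 0.26, unadjusted limma p of 0.247, adjusted p = 0.861). Pcdhb9 had the largest negative difference of the tested beta members, from 3.52, 2.56 and 3.16 FPKM in Ctrl libraries to 3.90, 1.36 and 2.01 FPKM in Gsk3sKO libraries, with Gsk3sKO replicate 1 the highest of all (log2 fold change -0.31, SE 0.33, adjusted p = 0.888). Pcdha4 and Pcdhb7 were the only tested members whose groups did not overlap, 2 of 44, against 12% of all gene totals tested.

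The gamma A and gamma B genes varied most between libraries of the same group, with a median within-group CV of 40.2% and 48.9%. Pcdhga11 was at 7.44, 7.11 and 9.98 FPKM in Ctrl libraries and at 9.87, 9.62 and 3.99 FPKM in Gsk3sKO libraries (log2 fold change -0.13, SE 0.32, adjusted p = 0.955). Pcdhga3 was at 4.91, 8.61 and 6.37 FPKM in Ctrl libraries and at 6.83, 5.88 and 6.62 FPKM in Gsk3sKO libraries (log2 fold change -0.01, SE 0.23, adjusted p = 0.998). These were the highest alternate gamma isoforms, and in both the groups overlapped. The values of Pcdhgc5, at 22.2 FPKM or more, did not overlap those of Pcdhac2, and the values of Pcdhac2, at 11.5 FPKM or more, did not overlap those of Pcdhga11, at 9.98 FPKM or less, whereas the ranges of Pcdhga11 and Pcdhga3 did.

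The largest differences of the tested members were those of Pcdhga1 and Pcdhga12, which stand at the opposite ends of the gamma A genes. Pcdhga1 was at 4.70, 3.20 and 5.49 FPKM in Ctrl libraries and at 2.89, 3.95 and 1.60 FPKM in Gsk3sKO libraries, a log2 fold change of -0.54 (SE 0.32) with the lowest p of the 44 tested members (unadjusted limma p of 0.122, adjusted p = 0.792). Its groups overlapped through Ctrl replicate 2 and Gsk3sKO replicate 2. Pcdhga12 was at 0.761, 5.48 and 4.63 FPKM in Ctrl libraries and at 4.70, 5.84 and 3.89 FPKM in Gsk3sKO libraries, a log2 fold change of 0.52 (SE 0.47, unadjusted limma p of 0.300) that became -0.07 without Ctrl replicate 1. That library was also the lowest for Pcdhgb4 at 0.310 FPKM, against 0.850 to 4.56 FPKM in the others, and for Pcdhgb2 at 0.485 FPKM, against 1.20 to 4.36 FPKM.

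Pcdhgb6 and Pcdhga6, gamma isoforms of middle level, depended on the same library. Pcdhgb6 was at 4.002, 8.29 and 7.92 FPKM in Ctrl libraries and at 4.92, 4.22 and 4.66 FPKM in Gsk3sKO libraries. Pcdhga6 was at 4.52, 8.13 and 6.63 FPKM in Ctrl libraries and at 4.45, 5.20 and 4.06 FPKM in Gsk3sKO libraries. With all libraries neither was called (unadjusted limma p of 0.174 and 0.156). Without Ctrl replicate 1 both were called, with log2 fold changes of -0.70 (unadjusted limma p of 0.0136, adjusted p = 0.885) and -0.59 (unadjusted limma p of 0.0397, adjusted p = 0.885), 2 of 44 members where 5.27% of all gene totals were called.

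**Figure D3:**
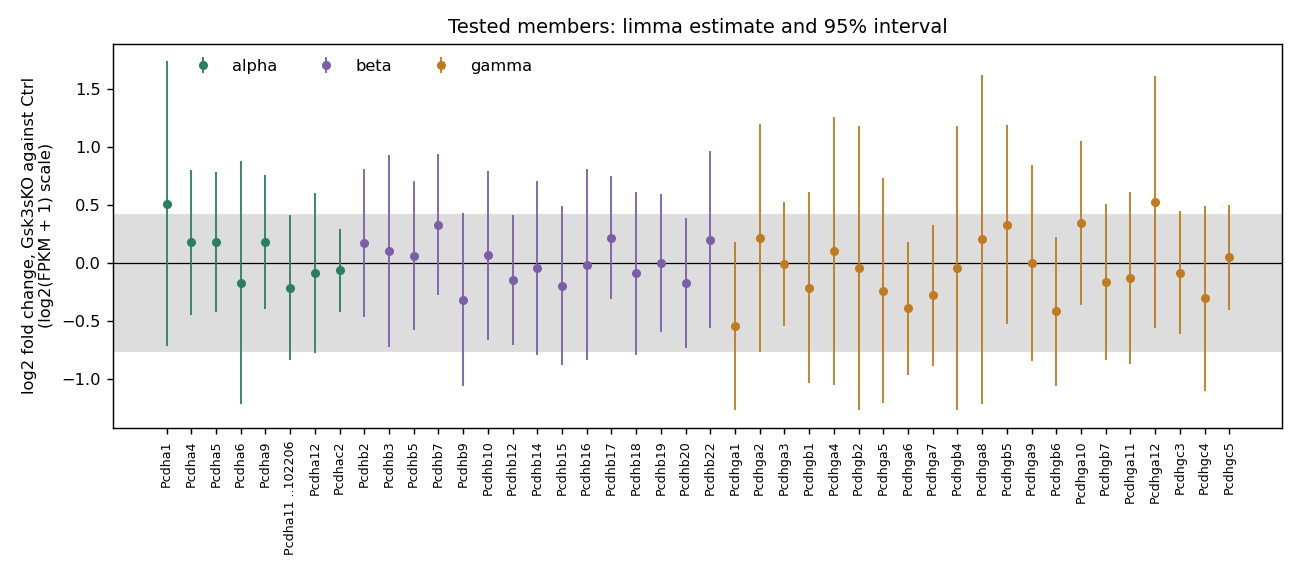
Log2 fold change of each tested member, Gsk3sKO against Ctrl, on the log2(FPKM + 1) scale, with its 95% limma interval (lines), in order along the array and coloured by cluster; the grey band holds the 5th to 95th percentile of the log2 fold changes of all gene totals tested, -0.75 to 0.41. Every interval crosses 0, and 42 of 44 estimates lie inside the band.

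Seen as a list, 18 tested members had a positive and 26 a negative log2 fold change, with a median of -0.03 and a range of -0.54 to 0.52. Over all gene totals tested the median was -0.06, and 41.1% were positive. By cluster, 4 alpha members were positive and 4 negative, 7 beta members positive and 8 negative, and 7 gamma members positive and 14 negative. The 95% intervals, on the log2(FPKM + 1) scale that understates changes at low values, reached from -1.27 to 1.73, with a median half-width of 0.70. Of the 44, 28 lay wholly within a change of 1 on that scale in either direction. For the other 16, among them Pcdha1, Pcdhga8 and Pcdhga12, a change of that size in at least 1 direction lay inside the interval.

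Variation among libraries of the same group differed between the clusters. The median within-group CV of the tested members was 18.9% in alpha, 23.0% in beta and 39.3% in gamma, beside 23.4% over all gene totals tested. Those gene totals had a median mean level of 8.61 FPKM. The medians over all members were lower, at 1.38, 1.41 and 4.30 FPKM for alpha, beta and gamma. They include the 15 members below the filter, unlike the median of the gene totals tested, and levels were not matched. In 5 gamma and 2 alpha members of the 44 tested, the highest library was at least 5 times the lowest. Pcdhga8 was at 2.16, 0.739 and 4.29 FPKM in Ctrl libraries and at 5.73, 0.426 and 3.60 FPKM in Gsk3sKO libraries, and Pcdhgb4 at 0.310, 4.56 and 1.65 FPKM in Ctrl libraries and at 1.56, 2.71 and 0.850 FPKM in Gsk3sKO libraries. The highest and the lowest library were both Gsk3sKO libraries for Pcdhga8 and both Ctrl libraries for Pcdhgb4.

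Cluster totals were steadier than their members. The within-group CV of the total was 3.39% for alpha, 6.76% for beta and 12.2% for gamma. In the gamma cluster the variances of the members added up to 0.570 times the variance of their total within Ctrl and 0.431 times within Gsk3sKO. For beta these ratios were 1.36 and 0.893. For alpha they were 0.775 within Ctrl and 24.6 within Gsk3sKO, where Gsk3sKO replicate 2 held the high value of Pcdha1 and the low value of Pcdha6. Each of these variances rests on 3 libraries, and whether members vary together was not tested. The tested gamma members' median deviation from their own mean over the 6 libraries was -0.20 on the log2 scale in Ctrl replicate 1. It was -0.20 in Gsk3sKO replicate 3 and 0.07 to 0.14 in the other libraries, so it did not follow the groups.

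**Figure D4:**
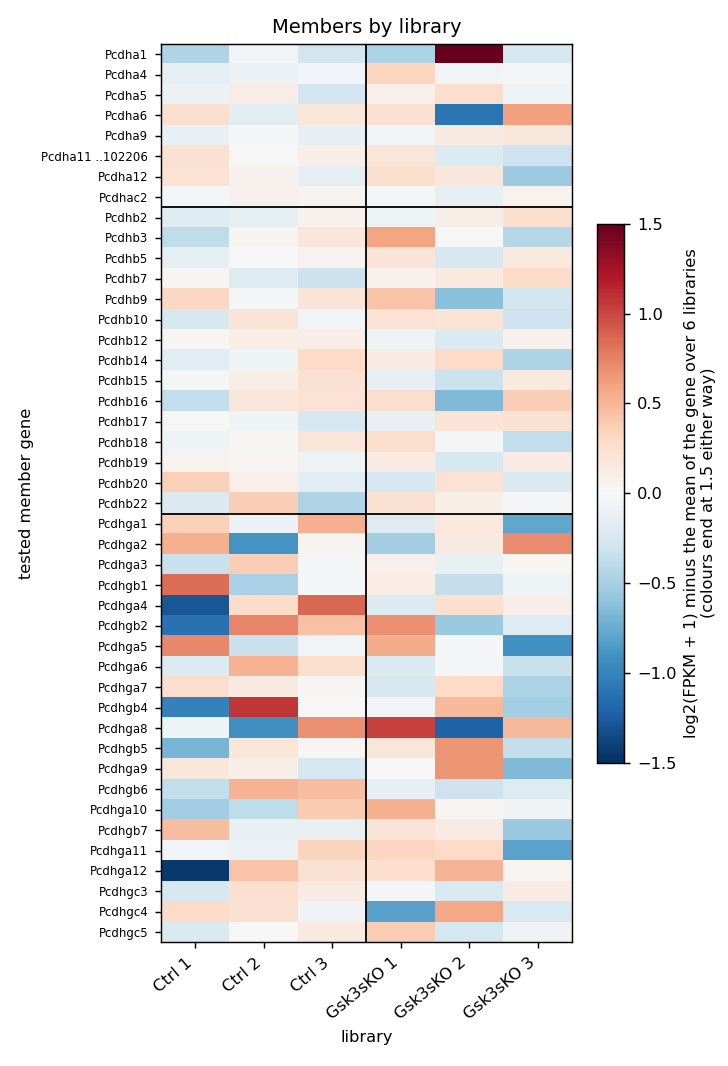
Deviation of log2(FPKM + 1) of each tested member (rows, in order along the array) from its mean over the 6 libraries (columns; red above, blue below, colours end at 1.5). Alpha and beta rows are mostly pale, gamma rows hold strong single cells such as Pcdhga12 in Ctrl 1 and Pcdhga8 in Gsk3sKO 2, and no block of rows separates the Ctrl from the Gsk3sKO columns.

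How reads are divided among isoforms bears on these values. The share of a gene's exonic bases that belong to other members as well had a median of 53.5% for alternate alpha, 44.8% for gamma A, 45.1% for gamma B and 38.5% for C-type genes, because the constant exons are common, and was 0 for all beta genes but Pcdhb21 and Pcdhb22, which overlap each other (highest 9.67%). Reads in constant exons are assigned to an isoform by the estimation program, so a value of an alpha or gamma gene is partly an estimate, and its part in the spread of the gamma genes was not tested. Beta genes resemble each other in sequence, but only 4.26% of their 50-base windows (median) occurred in another member. The spacing of low FPKM values put the libraries at about 23.5 to 45.2 M fragments, which places about 66 to 1137 fragments (median 249) behind a value of a tested beta gene.

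Transcripts of the same gene were tested as well, since a total can hide a shift between them. Of the 89 member transcripts, 43 reached a mean of 1 FPKM, and 0 of these were called, against 5.56% of 21584 transcripts. The lowest unadjusted limma p was 0.101, for a Pcdhgc5 transcript (ENSMUST00000193941) at 0.342, 0.335 and 1.64 FPKM in Ctrl libraries and at 2.23, 1.28 and 3.65 FPKM in Gsk3sKO libraries (log2 fold change 0.95, adjusted p = 0.855), with Ctrl replicate 3 above Gsk3sKO replicate 2. In Pcdhgc3 the estimate moved between transcripts within Ctrl. Its protein-coding transcript ENSMUST00000076807 was at 3.76, 6.29 and 0.571 FPKM and its retained-intron transcript ENSMUST00000194447 at 0.491, 0.041 and 5.16 FPKM in Ctrl replicates 1 to 3, whereas the gene total stayed within 4.25 to 6.33 FPKM.

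The protocadherins outside the array, which stand alone in the genome and are known as delta and related protocadherins, were counted beside the clustered ones. Of 12 listed genes 11 were tested, and 2 were called lower and 0 higher (2 of 11, against 6.56% of all gene totals), with a median log2 fold change of -0.04. Pcdh8, an activity-regulated adhesion gene also known as arcadlin, was at 17.9, 7.77 and 19.0 FPKM in Ctrl libraries and at 6.30, 6.43 and 7.15 FPKM in Gsk3sKO libraries (log2 fold change -0.97, SE 0.31, unadjusted limma p of 0.0142, adjusted p = 0.688). Pcdh10, a delta protocadherin known for its part in axon growth and synapse elimination, was at 56.3, 52.0 and 42.2 FPKM in Ctrl libraries and at 37.5, 33.2 and 39.2 FPKM in Gsk3sKO libraries (log2 fold change -0.44, SE 0.15, unadjusted limma p of 0.0211, adjusted p = 0.688). In both genes every Gsk3sKO library was below every Ctrl library. Neither passed the adjusted threshold, and each lost its unadjusted call when single libraries were left out: Pcdh8 without Ctrl replicate 1 or 3, Pcdh10 without Ctrl replicate 1 or 2 or Gsk3sKO replicate 2.

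The remaining 9 were not called. Pcdh1 was the highest, at 50.8, 62.8 and 66.9 FPKM in Ctrl libraries and at 60.8, 55.3 and 43.8 FPKM in Gsk3sKO libraries. Pcdh17 was nearly constant, between 18.8 and 20.4 FPKM. Pcdh11x and Pcdh19 also had every Gsk3sKO library below every Ctrl library without a call, so the groups did not overlap in 4 of the 11, all of them lower in Gsk3sKO, against 8.3% of all gene totals. Of the 11, 3 had a positive and 8 a negative log2 fold change. The largest positive one was that of Pcdh9 (log2 fold change 0.86, SE 0.48, unadjusted limma p of 0.109). It was at 16.1, 5.58 and 23.6 FPKM in Ctrl libraries and at 21.9, 17.1 and 39.0 FPKM in Gsk3sKO libraries, with overlap. The difference between clustered and non-clustered protocadherins was not tested.

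**Figure D5:**
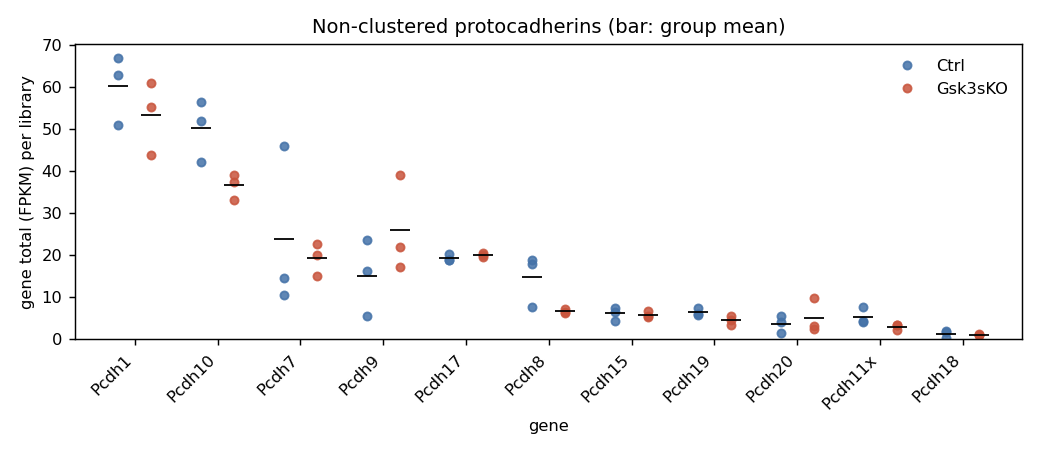
Gene totals (FPKM, linear axis from 0) of the 11 tested non-clustered protocadherins in each library, blue for Ctrl and red for Gsk3sKO, with bars at the group means (n = 3). In Pcdh10, Pcdh8, Pcdh19 and Pcdh11x the groups do not overlap, and in the others they do.

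Genes that act on promoter choice in the array were counted next. Of 22 listed genes 21 were tested, and 2 were called lower and 1 higher, against 6.56% of all gene totals in either direction, with a median log2 fold change of -0.02. Dnmt3a, a DNA methyltransferase that sets methylation at new sites, was at 12.5, 8.82 and 10.1 FPKM in Ctrl libraries and at 6.59, 4.92 and 2.93 FPKM in Gsk3sKO libraries, without overlap (log2 fold change -1.02, SE 0.28, unadjusted limma p of 0.00584, adjusted p = 0.607). Tet2, which oxidises methylated cytosine, was at 4.74, 11.2 and 7.11 FPKM in Ctrl libraries and at 2.31, 4.12 and 5.17 FPKM in Gsk3sKO libraries, with overlap (log2 fold change -0.82, SE 0.35, unadjusted limma p of 0.0450, adjusted p = 0.751). Pds5b, a cohesin regulator, was at 20.0, 21.9 and 27.9 FPKM in Ctrl libraries and at 32.0, 26.7 and 38.6 FPKM in Gsk3sKO libraries, with overlap (log2 fold change 0.46, SE 0.19, unadjusted limma p of 0.0410, adjusted p = 0.750). Ctcf, at 20.6, 22.7 and 21.6 FPKM in Ctrl libraries and 24.8, 24.4 and 24.7 FPKM in Gsk3sKO libraries, was higher in every Gsk3sKO library but not called (log2 fold change 0.18, SE 0.13, unadjusted limma p of 0.214). The cohesin core gene Smc1a was the highest of the list, at 94.1 ± 5.95 and 87.8 ± 10.3 FPKM (SD, n = 3). The calls of Tet2 and Pds5b were lost when single libraries were left out, Tet2 without Ctrl replicate 2 or 3 or Gsk3sKO replicate 1 or 2, and Pds5b without Ctrl replicate 1 or 2 or Gsk3sKO replicate 1 or 3.

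Of 19 genes for intracellular partners and processing, all tested, 1 was called lower and 0 higher, with a median log2 fold change of -0.04. This share is near the background, 6.56% of all gene totals in either direction and 5.2% lower. The called gene was Axin1, a scaffold of the β-catenin destruction complex in which GSK3β also sits, at 7.97, 7.74 and 10.7 FPKM in Ctrl libraries and at 6.76, 4.27 and 5.20 FPKM in Gsk3sKO libraries, without overlap (log2 fold change -0.62, SE 0.23, unadjusted limma p of 0.0273, adjusted p = 0.719). The call was lost without Ctrl replicate 3 or Gsk3sKO replicate 2 or 3. The kinase genes Ptk2 (FAK) and Ptk2b (Pyk2), whose products bind the constant domains of alpha and gamma proteins, were not called, with Ptk2 at 39.0 ± 1.15 and 43.6 ± 0.271 FPKM and Ptk2b at 152 ± 23.1 and 134 ± 34.8 FPKM (SD, n = 3). The highest of the list was Cyfip2, a WAVE complex gene, at 224 ± 25.4 and 249 ± 30.5 FPKM.

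Markers of excitatory and inhibitory neurons and of non-neuronal cells were summed beside these values. Their summed levels in Ctrl and Gsk3sKO libraries ranged from 893 to 1010.5 and from 854 to 1056 FPKM for 7 excitatory markers, from 1000.4 to 1327 and from 942 to 1032 FPKM for 7 inhibitory markers, from 171 to 214 and from 176 to 223 FPKM for 7 astrocyte markers (Slc1a2 highest), and from 15.9 to 64.1 and from 22.8 to 61.0 FPKM for 6 endothelial markers (Slco1a4 highest). Against 6.56% of all gene totals (5.2% lower), 1 of 7 excitatory, 2 of 6 oligodendrocyte and 1 of 5 microglial markers tested were called, all lower. None of the inhibitory, astrocyte, endothelial or D2 markers was called, and of the excitatory ones Tbr1, a transcription factor of deep-layer neurons, was called lower (log2 fold change -0.40, unadjusted limma p of 0.0283, adjusted p = 0.726). Of the oligodendrocyte markers, the myelin genes Mog and Mag were called lower (limma log2 fold change -1.57, adjusted p = 0.607, and -0.69, adjusted p = 0.702), with Mog listed at 0 in Gsk3sKO replicates 2 and 3. Of the 6 microglial markers, which summed to 14.2 to 25.3 and 12.4 to 15.4 FPKM, the complement gene C1qa was called lower and was the highest of the list (limma log2 fold change -0.82, adjusted p = 0.688). P2ry12, a microglial receptor gene of nearly the same level, was not called and had a positive log2 fold change of 0.72 (limma adjusted p = 0.825). No choroid plexus marker reached 1 FPKM as a mean, their sum was 2.46 FPKM or less in every library with Kl the highest, and Folr1 was listed at 0 in all. The part of these markers in the values of Pcdh8, Pcdh10 or the clustered genes was not tested.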

How the data were processed

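RNA bound to ribosomes was measured in 6 libraries, 3 Ctrl and 3 Gsk3sKO, grouped by their labels. Per the labels, the libraries were made with a stranded total RNA kit, and the submitters' processing notes name HISAT2 2.1.0, SAMtools 1.9, StringTie 1.3.4d and build GRCm38. The authors deposited FPKM for each of 115220 transcripts in each library, without counts. The fold, p-value and q-value columns that the authors deposited come from their own comparison of the groups and were not used. The depth is known only as an estimate from the spacing of low values (12.3% to 20.5% of them within 0.01 fragments of a whole number at the best spacing, where 2.0% would be by the tolerance alone).

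Transcript FPKM were summed by gene ID. Symbols, positions and exons came from the GENCODE annotation of GRCm38. Gene totals and transcripts with a mean of at least 1 FPKM entered a linear model with moderated variances (lmFit and eBayes with a trend, limma 3.58.1, R 4.3.3) on log2(FPKM + 1), 2-sided, without covariates, with Benjamini-Hochberg adjustment over the whole table. The fit was tested on simulated data with 200 changed genes. The smallest p of an exact permutation test on 3 against 3 libraries is 0.1. Python 3.11.15 with pandas 2.3.3, numpy 2.4.6 and matplotlib 3.10.9 served for sums and plots.

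The members and all gene lists were chosen with earlier results of these data known. Genes are named by a rule: members or list genes with an unadjusted p under 0.05, the 3 highest members of each cluster, all C-type members, the largest difference in each direction in each cluster, the highest gene of each list (1 is not reported here), and Gsk3b. Pcdha4, Pcdha6, Pcdha8, Pcdhb1, Pcdhb11, Pcdhga6, Pcdhga8, Pcdhgb2, Pcdhgb4, Pcdhgb6, the Pcdha11 ID below the filter, the named transcripts, Pcdh9, Pcdh11x, Pcdh17, Pcdh19, Ctcf, Ptk2, Ptk2b, P2ry12 and single markers without a call were named after their values were seen. Alternatives were another pseudocount (0.1), no filter or a minimum of 5 FPKM, rescaling, no trend, no moderation, protein-coding transcripts alone, a replicate block, each library left out, and summing by symbol.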

Additional observations from a re-analysis of the deposited data

How the results depend on the processing

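No member gene total was called under any alternative with all 6 libraries, and leaving out single libraries gave 0 to 2 called members (2 without Ctrl replicate 1) while 574 to 1175 gene totals of the table were called, beside 844 in all. Among the 43 member transcripts tested, counted after seeing the data, leaving out single libraries gave 0 to 1 called. There was 1 each without Ctrl replicate 1 (Pcdhgb6), Ctrl replicate 3 (Pcdhgc5) and Gsk3sKO replicate 1 (Pcdhga9), with limma adjusted p of 0.526 to 0.838. The share over all transcripts was not counted in these fits. With all 6 libraries it was 5.56%. The median log2 fold change of the tested members ranged from -0.0895 to 0.0750 over the left-out libraries, and the log2 differences of the totals from -0.00485 to 0.0555 for alpha, -0.0521 to 0.0595 for beta and -0.157 to 0.0438 for gamma. The alpha difference was -0.0627 with a minimum of 5 FPKM, where only Pcdhac2 remains, 0.0774 after rescaling and 0.0780 with protein-coding transcripts alone, and the beta difference was -0.18 with a minimum of 5 FPKM, where only Pcdhb20 remains. Signs turned after rescaling for Pcdhga3 (0.0415) and, with single libraries left out, for Pcdha12 (-0.23 to 0.16), Pcdha1 (-0.11 to 0.88), Pcdhgc5 (-0.13 to 0.19), Pcdhga11 (-0.32 to 0.24), Pcdhga3 (-0.18 to 0.17), Pcdhga12 (-0.0685 to 0.87), Pcdhgc3 (-0.22 to 0.0183) and Pcdhgc4 (-0.67 to 0.0237); the cause was not tested. The calls of Dnmt3a and Mog were kept in every alternative run, whereas Pcdh8, Pcdh10, Axin1, Mag, C1qa, Tbr1, Pds5b and Tet2 lost theirs in 2 to 9 of them.

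Replicate numbers were shared between the groups, and the labels do not say whether they pair the libraries. The deviations of same-numbered libraries from their group means correlated at -0.0274, -0.0108 and -0.0809, and no library correlated best with its own number. With the replicate number as a block 821 gene totals and 0 members were called, and the block ended 1 call among the named genes (Tbr1). The libraries were 3 a group, with about 23.5 to 45.2 M fragments each. At this size the members' 95% intervals had a median half-width of 0.70 and reached from -1.27 to 1.73. They are on the log2(FPKM + 1) scale, which understates the change of members with low values.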

Other observations

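Inside the array lie 27 other annotated genes, 15 of them on the strand opposite to the protocadherins, and 7 were listed at 0 in all libraries. Only Taf7, a subunit gene of the general transcription factor TFIID between the beta and gamma clusters, and Gm26672 had a mean of at least 1 FPKM. Taf7 was at 9.52, 5.80 and 4.36 FPKM in Ctrl libraries and at 6.44, 6.96 and 6.40 FPKM in Gsk3sKO libraries, with overlapping groups. Gm38182, a processed transcript on the plus strand (chromosome 18, bases 37823879 to 37840382), was singled out after its values were seen. It was at 1.89, 1.01 and 2.09 FPKM in Ctrl libraries and was listed at 0 in every Gsk3sKO library. Its mean of 0.831 FPKM is below the filter, and the limma fit without a filter gave an unadjusted p of 0.000768 and an adjusted p of 0.641. It lies inside the spans of Pcdhgc3, Pcdhgc4 and Pcdhgc5, on their strand, and the division of reads between it and them was not tested.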
